A study of Mus musculus with 12 samples.

Results

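The 10 genes described here encode the inhibitors of cyclin-dependent kinases (CDKs), the D-type cyclins and the transcription factor Myc, the gene products at the centre of the growth arrest that transforming growth factor beta 1 (TGF-β1) causes in many cell types. They were chosen by name: *Cdkn1a*, *Cdkn1b* and *Cdkn1c* of the Cip/Kip family, *Cdkn2a*, *Cdkn2b* and *Cdkn2c* of the INK4 family, *Ccnd1*, *Ccnd2* and *Ccnd3*, and *Myc*. They are 10 of 55401 genes in the table, and all 10 were among the 12016 genes tested. Polyadenylated RNA was sequenced from bone marrow mesenchymal stem cells (MSCs) of C57BL/6 mice, bought from a commercial supplier, in 4 groups of 3 libraries. One group was untreated, one received TGF-β1 (5 ng/mL), and the other two received TGF-β1 at that dose together with the culture supernatant of sorted monocytic (M-MDSC) or granulocytic (G-MDSC) myeloid-derived suppressor cells. The donors of the supernatants were mouse bone marrow cells, cultured with the cytokines GM-CSF and IL-6 to induce MDSCs before sorting. The sorted cells were CD11b+, M-MDSCs being Ly6G-Ly6C high and G-MDSCs Ly6G+Ly6C low. Supernatant was never given without TGF-β1, and no group received medium conditioned by another cell type, so a supernatant value is read against TGF-β1 alone. The study asked how these supernatants alter the conversion of MSCs into myofibroblasts.

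D-type cyclins bind CDK4 and CDK6, and the complexes start the phosphorylation of the retinoblastoma protein, which releases E2F factors and lets a cell pass from G1 into S phase. INK4 proteins bind CDK4 and CDK6 and keep the cyclins away, whereas Cip/Kip proteins act on cyclin–CDK2 complexes and can also help cyclin D to assemble with its kinase. Myc drives growth and represses *Cdkn2b* and *Cdkn1a*. In epithelial cells, the textbook response to TGF-β is higher *Cdkn2b* and *Cdkn1a* and lower *Myc*, whereas fibroblasts and other mesenchymal cells often keep dividing.

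*Cdkn2a* and *Cdkn2b* lie 11646 bases apart on chromosome 4 and are both read from the minus strand. *Cdkn2a* has 2 start sites, the outer for the transcript of p19ARF, which stabilises p53, and the inner for that of p16INK4a, and the 2 transcripts share their later exons. The stretches from 250 to 36 bases before 4 start sites are shown (RefSeq, GRCm38.p6), those of *Cdkn2a* and *Cdkn2b* because these neighbours were both lower after TGF-β1, and that of the inner start of *Cdkn1a*, the other inhibitor of the textbook response, for comparison. Capitals mark the letters GGGCGG, the GC box that Sp1 can bind, and CAGAC, a SMAD-binding element, on either strand, so that CAGAC on the other strand reads GTCTG.
Cdkn2a, outer start, chr4:89294655-89294869, minus strand: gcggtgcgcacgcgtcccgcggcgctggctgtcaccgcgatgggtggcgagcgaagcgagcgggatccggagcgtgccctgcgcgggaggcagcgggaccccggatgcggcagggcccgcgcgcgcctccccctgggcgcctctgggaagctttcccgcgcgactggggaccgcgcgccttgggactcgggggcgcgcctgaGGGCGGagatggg
Cdkn2a, inner start, chr4:89282228-89282442, minus strand: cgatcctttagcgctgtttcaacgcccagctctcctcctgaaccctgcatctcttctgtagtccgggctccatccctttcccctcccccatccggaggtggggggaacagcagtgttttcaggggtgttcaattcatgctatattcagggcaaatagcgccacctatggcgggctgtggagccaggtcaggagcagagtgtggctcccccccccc
Cdkn2b, chr4:89311068-89311282, minus strand: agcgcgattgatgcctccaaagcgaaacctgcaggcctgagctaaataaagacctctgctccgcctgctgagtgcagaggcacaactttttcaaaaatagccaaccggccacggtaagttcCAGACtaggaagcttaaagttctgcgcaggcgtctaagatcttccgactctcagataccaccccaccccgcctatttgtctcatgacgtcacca
Cdkn1a, inner start, chr17:29093519-29093733, plus strand: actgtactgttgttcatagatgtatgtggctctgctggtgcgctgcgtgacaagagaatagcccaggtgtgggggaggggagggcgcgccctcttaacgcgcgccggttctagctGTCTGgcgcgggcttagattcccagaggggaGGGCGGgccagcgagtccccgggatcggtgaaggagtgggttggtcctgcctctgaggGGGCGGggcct

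GGGCGG occurred in 27.7% and CAGAC in 37.8% of 32851 mouse promoter windows of the same 215 bases. The outer *Cdkn2a* window held 1 GGGCGG, the inner *Cdkn2a* window neither motif, and the *Cdkn2b* window 1 CAGAC. The inner *Cdkn1a* window held 2 GGGCGG and 1 CAGAC. None of these matches overlapped another. The Myc-binding E-box CACGTG (4.84% of all windows), the E2F motif TTCGCGC (1.01%) and the TATA box TATAAA (9.75%) were searched on both strands too and were not among the letters of any window of the 6 matched genes. The GC content was 78.6% in the outer and 59.5% in the inner *Cdkn2a* window, 52.1% in that of *Cdkn2b* and 64.7% in that of *Cdkn1a*, beside a median of 51.6% over all windows. A match is a run of letters and does not show that a factor binds there.

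The libraries held 73977669 to 84565450 counts. Of 9 MSC markers, 7 or 8 had a group mean of at least 1 fragment per kilobase of exon, scaled to library size (FPKM), *Eng* being lower in every group. *Ly6a* (Sca-1) averaged 245 FPKM in untreated MSCs, 16.2 FPKM with TGF-β1, 92.5 FPKM with M-MDSC and 66.9 FPKM with G-MDSC supernatant. *Kit* (CD117) and *Pecam1* (CD31), markers of other lineages, had at most 10 and 120 counts in any library. Libraries resembled another library of their own group most, except that replicate 3 of the M-MDSC supernatant group was closer to a G-MDSC supernatant library, so calls of that group that were lost without it are given with the value without it. The summed FPKM of 8 kidney tubule genes was 29.3 to 30.9 in untreated MSCs, nearly all of it *Aqp1*, and 4.67 to 4.84 with TGF-β1. With supernatants it was 36.5 to 107 (M-MDSC) and 71.9 to 83.3 (G-MDSC), and *Kap*, at 0 counts in all 6 libraries without supernatant, reached 537 to 4246 counts in the M-MDSC and 2474 to 3185 in the G-MDSC supernatant libraries. The 12 leukocyte markers summed to 6.20 to 7.10 FPKM in untreated MSCs, 2.27 to 3.18 with TGF-β1, 4.34 to 6.77 with M-MDSC and 5.63 to 8.44 with G-MDSC supernatant, and the pan-leukocyte gene *Ptprc* had at most 26 counts in any library. Of these 12, *Ly6g* and *Ly6c2*, genes of the MDSC sort gate, were highest in untreated MSCs (1.83 and 1.71 FPKM) and averaged at most 0.125 and 0.211 FPKM in the other groups, and *Mpo* and *Elane* had 0 counts in every library. The myeloid gene *Lyz2* averaged 0.115 FPKM in untreated MSCs and 0.0572 FPKM with TGF-β1, but 1.54 FPKM with M-MDSC and 1.87 FPKM with G-MDSC supernatant, reaching 262 counts in each of these groups. *S100a9*, a granulocyte and monocyte gene, had 0 counts in all 6 libraries without supernatant, 12 to 43 counts with M-MDSC and 0 to 160 with G-MDSC supernatant. The part of these kidney and leukocyte transcripts in the supernatant results below was not tested. Nothing in the sources used here says that libraries of a group came from separate cultures, so p-values measure only the spread between these libraries.

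TGF-β1 altered several of these genes, most of them downward. Of the 10 genes, 5 passed the test (adjusted p under 0.05) between TGF-β1 and untreated MSCs, where 34% of all genes tested passed. *Cdkn2a*, *Cdkn2b*, *Cdkn1b* and *Ccnd1* fell and *Ccnd2* rose, beside 17.9% of all genes that fell and 16.1% that rose. Scaling by total counts alone lowered the share of higher genes among all those called from 47.3% to 35.1% and left these 5 calls as they were. The median log2 fold change was -0.17 over the 10 genes and 0.00048 over all genes tested. Without *Cdkn1c*, which entered the test only through the untreated libraries, the median of the other 9 genes was -0.083. None of the 10 passed the study's rule of a fold above 2 or below 0.5 with unadjusted p under 0.05, which 6.74% of all genes passed. The 2 groups did not overlap for 7 of the 10 genes (6 of the 9 without *Cdkn1c*), and for 46.7% of all genes tested. These are levels in bulk RNA, in which fewer cells that express a gene and less RNA per cell cannot be told apart.

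**Figure D1:**
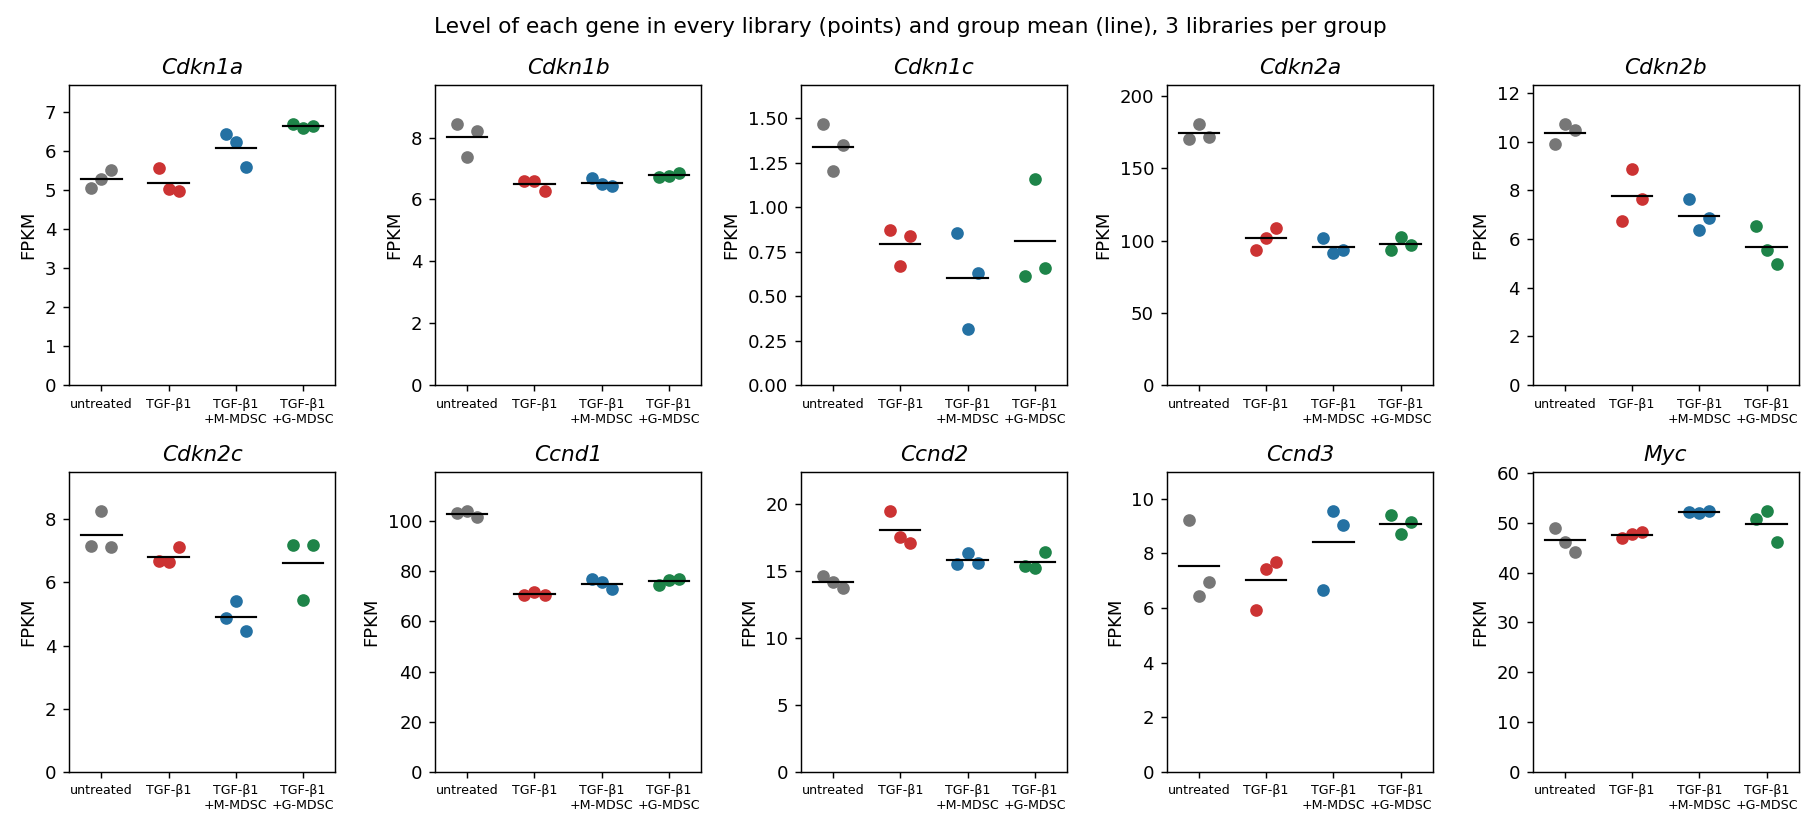
FPKM of each of the 10 genes (vertical axes, from 0) in untreated MSCs and MSCs with TGF-β1, TGF-β1 and M-MDSC supernatant, or TGF-β1 and G-MDSC supernatant; points are the 3 libraries of a group and lines the group means. The untreated points lie above all TGF-β1 points for *Cdkn2a* (170.4 to 181 against 93.9 to 109) and *Ccnd1* (102 to 104 against 70.5 to 71.8), and below them for *Ccnd2*.

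*Cdkn2a*, which encodes p16INK4a and p19ARF, was by far the most abundant inhibitor. Its level was 170.4, 181 and 172 FPKM in the 3 untreated libraries and 93.9, 102 and 109 FPKM with TGF-β1. The M-MDSC supernatant libraries had 102, 91.2 and 93.8 FPKM and the G-MDSC supernatant libraries 93.3, 102 and 96.8 FPKM. All 9 libraries with TGF-β1 were thus below all untreated ones, and the 3 TGF-β1 groups overlapped one another. The means were 174 ± 5.55 FPKM in untreated MSCs and 102 ± 7.44 FPKM with TGF-β1 (SD, n = 3), and 2.26% of the genes tested had a higher mean in untreated MSCs. With TGF-β1, *Cdkn2a* fell by 39.4%, a log2 fold change of -0.72 ± 0.064 (SE, adjusted p = 7.41e-06). M-MDSC supernatant changed this level by -0.11 (95% confidence interval -0.25 to 0.033, adjusted p = 0.442) and G-MDSC supernatant by -0.085 (-0.23 to 0.055, adjusted p = 0.579) on the log2 scale. The counts are per gene, so the share of p16INK4a and p19ARF transcripts is not known.

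*Cdkn2b*, which encodes p15INK4b, also fell with TGF-β1, though close to the threshold. Its level was 9.93, 10.7 and 10.5 FPKM in untreated MSCs and 6.75, 8.87 and 7.65 FPKM with TGF-β1, and the groups did not overlap. The log2 fold change was -0.36 ± 0.12 (adjusted p = 0.0453). The call was lost in 12 of 22 alternative analyses, in all of which the gene stayed lower (log2 fold change -0.47 to -0.27, adjusted p up to 0.155). It was lost without untreated replicate 1, 2 or 3 (adjusted p = 0.0567, 0.115 and 0.0981), TGF-β1 replicate 1 or 3 (0.155 and 0.103), G-MDSC replicate 2 (0.0594) and M-MDSC replicate 2 or 3 (0.0503 and 0.0602). With G-MDSC supernatant the level was lower still, at 6.54, 5.55 and 4.98 FPKM, below all 3 TGF-β1 libraries. Against TGF-β1 alone this was a log2 fold change of -0.47 ± 0.12 that missed the threshold (adjusted p = 0.0557). It passed without TGF-β1 replicate 1 (0.0391), without G-MDSC replicate 1 (0.0345) and with DESeq2 (0.0156). The M-MDSC supernatant libraries, at 7.64, 6.37 and 6.87 FPKM, overlapped those with TGF-β1 alone (log2 fold change -0.18, 95% confidence interval -0.46 to 0.097, adjusted p = 0.519). Against untreated MSCs, *Cdkn2b* fell with both supernatants, by 0.54 on the log2 scale with M-MDSC (adjusted p = 0.00618) and by 0.84 with G-MDSC supernatant (adjusted p = 4e-04).

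*Cdkn2c*, which encodes p18INK4c, did not pass the test with TGF-β1 alone but fell with M-MDSC supernatant. Untreated MSCs had 7.14, 8.27 and 7.14 FPKM and TGF-β1-treated MSCs 6.67, 6.66 and 7.13 FPKM, a log2 fold change of -0.083 with a 95% confidence interval of -0.35 to 0.18 (adjusted p = 0.648). With M-MDSC supernatant the level was 4.88, 5.43 and 4.45 FPKM, below every library of the untreated and TGF-β1 groups. The fall from TGF-β1 alone was 0.49 ± 0.12 on the log2 scale (SE, adjusted p = 0.0447), the single call among the 10 genes in that comparison. This call was lost in 16 of 22 alternatives, with a log2 fold change of -0.57 to -0.40 throughout. Leaving out a single library ended it for 10 of 12 libraries: untreated replicates 1 to 3 gave adjusted p = 0.0638, 0.0516 and 0.0628, TGF-β1 replicates 1 to 3 gave 0.1, 0.105 and 0.143, M-MDSC replicates 1 to 3 gave 0.118, 0.0529 and 0.154, and G-MDSC replicate 1 gave 0.0539. Without the M-MDSC library that stands apart, replicate 3, the log2 fold change was -0.42, and 0 of the 10 genes passed. The G-MDSC supernatant libraries had 7.20, 5.44 and 7.20 FPKM, the lowest of which lay near the M-MDSC group and the others just above the TGF-β1 libraries. Set directly against the G-MDSC group, the M-MDSC group had a log2 fold change of -0.42 ± 0.12, which did not pass (adjusted p = 0.41). Against untreated MSCs it fell by 0.58 with M-MDSC supernatant (adjusted p = 0.00341).

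The INK4 family has another gene, *Cdkn2d*, which encodes p19INK4d and is not one of the 10. It fell from 8.43 ± 0.393 FPKM in untreated MSCs to 5.81 ± 0.172 FPKM with TGF-β1 (-0.48 ± 0.095, adjusted p = 0.00251), and neither supernatant moved it past the test (0.085 and 0.12). Summed over *Cdkn2a*, *Cdkn2b* and *Cdkn2c*, the level went from 192 ± 6.54 FPKM in untreated MSCs to 116 ± 8.20 FPKM with TGF-β1, and was 108 ± 6.21 FPKM with M-MDSC and 109.8 ± 3.21 FPKM with G-MDSC supernatant. *Cdkn2a* made up 90.7%, 87.4%, 89.0% and 88.8% of these sums, so they follow that gene.

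**Figure D2:**
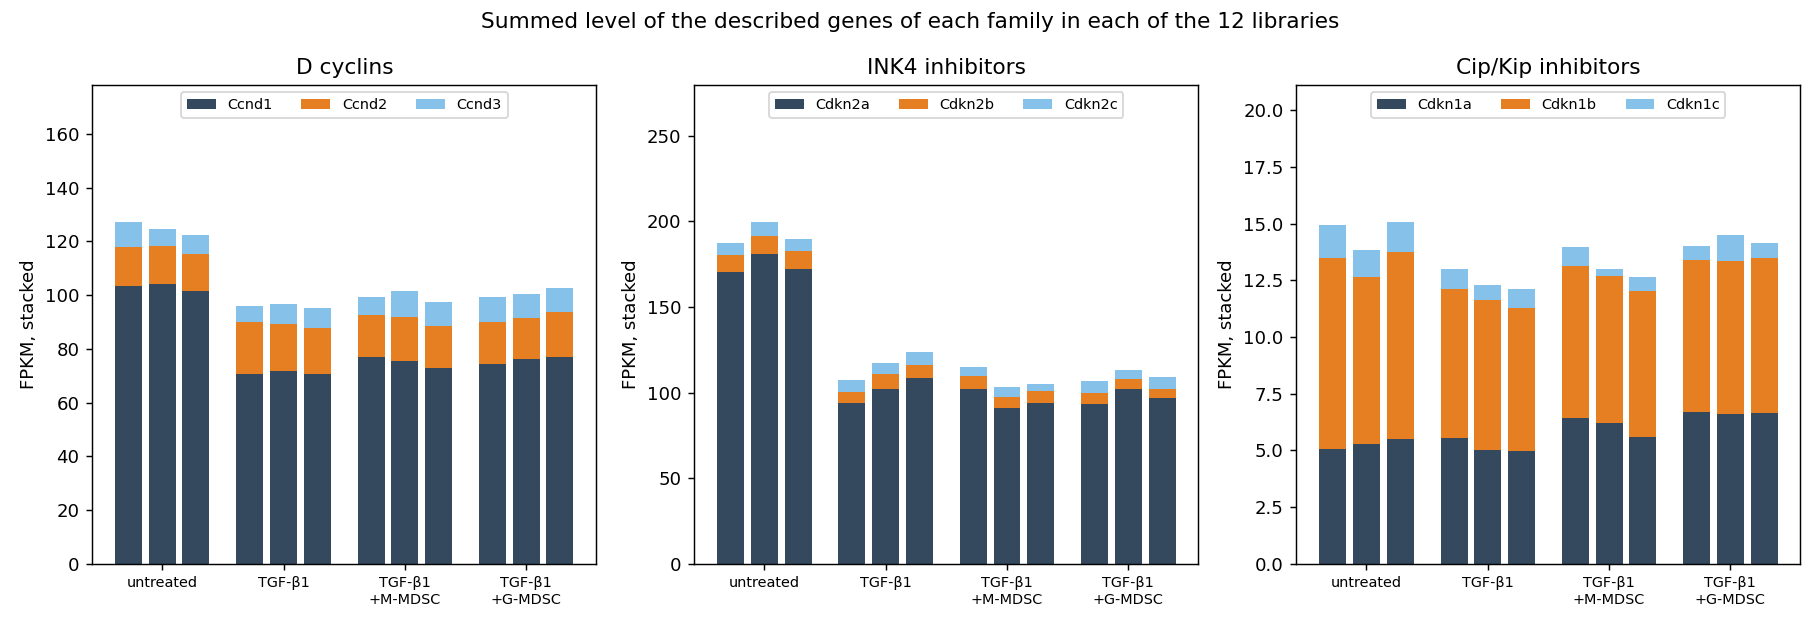
Summed FPKM (vertical axes, from 0) of the D cyclins, 3 INK4 inhibitors (*Cdkn2d* left out) and the Cip/Kip inhibitors in each of the 12 libraries, stacked by gene. *Ccnd1* and *Cdkn2a* form most of their sums, and both sums are higher in the 3 untreated libraries (122 to 127 and 188 to 199.8 FPKM) than in the 9 others.

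*Cdkn1a*, which encodes the p53 target p21, did not follow TGF-β1. Its level was 5.06, 5.27 and 5.52 FPKM in untreated MSCs and 5.55, 5.03 and 4.98 FPKM with TGF-β1, and the groups overlapped. The log2 fold change was 0.031 with a 95% confidence interval of -0.13 to 0.19 (adjusted p = 0.781), and it turned slightly negative under scaling by total counts (-0.030) and on the FPKM scales. The level was higher with G-MDSC supernatant, at 6.69, 6.59 and 6.65 FPKM, above every other library. That was a rise of 0.33 ± 0.070 on the log2 scale over TGF-β1 alone (adjusted p = 0.0201). The call was lost without TGF-β1 replicate 2 or 3 (adjusted p = 0.0807 and 0.0608) and without G-MDSC replicate 1, 2 or 3 (0.0716, 0.0564 and 0.0561), while the fold change stayed at 0.31 to 0.38 in all 22 alternatives. The M-MDSC supernatant libraries had 6.43, 6.22 and 5.59 FPKM, all above those with TGF-β1 alone, a log2 fold change of 0.21 ± 0.070 that did not pass (adjusted p = 0.158). The lowest of them was replicate 3, the library that stands apart, and without it the fold change was 0.26 (adjusted p = 0.0922). Against untreated MSCs, *Cdkn1a* rose by 0.36 with G-MDSC supernatant (adjusted p = 0.00227) and by 0.24 with M-MDSC supernatant (adjusted p = 0.0231). The M-MDSC call was lost without untreated replicate 1 (0.0759) and M-MDSC replicate 1 or 2 (0.083 and 0.0722), and when only these 2 groups were fitted (0.0643).

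*Cdkn1b*, which encodes p27, fell with TGF-β1 in every group that received it. Untreated MSCs had 8.44, 7.38 and 8.21 FPKM, TGF-β1-treated MSCs 6.58, 6.59 and 6.28 FPKM, and the 6 supernatant libraries 6.43 to 6.86 FPKM. No library with TGF-β1 reached the lowest untreated one. The fall was 0.25 ± 0.054 on the log2 scale (SE, adjusted p = 0.00487). Against untreated MSCs it also fell with M-MDSC (0.26, adjusted p = 0.00366) and G-MDSC supernatant (0.21, adjusted p = 0.0122, or 0.0616 when only these 2 groups were fitted). Neither supernatant moved *Cdkn1b* past the test, with log2 fold changes of -0.011 (M-MDSC, 95% confidence interval -0.13 to 0.11, adjusted p = 0.953, and 0.012 when scaled by total counts) and 0.038 (G-MDSC, -0.083 to 0.16, adjusted p = 0.815).

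*Cdkn1c*, which encodes the imprinted inhibitor p57, was barely expressed. It had 231 to 257 counts in the untreated libraries (1.47, 1.21 and 1.35 FPKM) and 127 to 161 counts with TGF-β1 (0.87, 0.67 and 0.84 FPKM). The supernatant libraries had 0.86, 0.32 and 0.63 FPKM (M-MDSC) and 0.61, 1.16 and 0.66 FPKM (G-MDSC). Only the 3 untreated libraries and 1 other reached 1 FPKM, so the gene entered the test through the group in which it is high. A lower level against untreated MSCs was thus favoured by the filter on low values, and the fitted differences are given as a description from which no call is drawn. They were -0.69 ± 0.33 (SE) on the log2 scale with TGF-β1, -1.11 ± 0.34 with M-MDSC and -0.69 with G-MDSC supernatant. Leaving out replicate 2 of the M-MDSC group, its lowest library, gave -0.81, and leaving out replicate 2 of the G-MDSC group, its highest, gave -1.03. The M-MDSC difference had an adjusted p of 0.0255, which rose to between 0.0551 and 0.0655 when only the 2 groups were fitted or without untreated replicate 1 or 3 or M-MDSC replicate 2 or 3. The TGF-β1 difference had an adjusted p of 0.143 (0.0217 with only the 2 groups fitted) and the G-MDSC difference 0.142 (0.0465 without G-MDSC replicate 2). The M-MDSC difference also met the study's rule, as did 6.98% of all genes in that comparison.

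The Cip/Kip sum was 14.6 ± 0.678 FPKM in untreated MSCs, 12.5 ± 0.481 FPKM with TGF-β1, 13.2 ± 0.689 FPKM with M-MDSC and 14.2 ± 0.245 FPKM with G-MDSC supernatant. Its composition shifted from *Cdkn1b* to *Cdkn1a*: the share of *Cdkn1b* was 54.7 ± 1.59% in untreated MSCs and 47.6 ± 0.971% with G-MDSC supernatant, and that of *Cdkn1a* was 36.1 ± 2.16% and 46.7 ± 1.12%.

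*Ccnd1* and *Ccnd2* moved in opposite directions under TGF-β1, and *Ccnd3* did not pass. *Ccnd1*, the main D cyclin of these cells, had 103, 104 and 102 FPKM in untreated MSCs and 70.6, 71.8 and 70.5 FPKM with TGF-β1. With M-MDSC supernatant it had 77.0, 75.6 and 72.8 FPKM and with G-MDSC supernatant 74.5, 76.4 and 77.1 FPKM. The libraries of a group lay within a few FPKM of each other, and the untreated group stood far above the rest. With TGF-β1, *Ccnd1* fell by 28.3%, a log2 fold change of -0.48 ± 0.031 (adjusted p = 7.24e-07). Both supernatant groups lay just above TGF-β1 alone without overlapping it, by 0.059 (95% confidence interval -0.0099 to 0.13, adjusted p = 0.381) and 0.072 (0.0031 to 0.14, adjusted p = 0.263) on the log2 scale, and neither difference passed. *Ccnd1* was still lower than in untreated MSCs with M-MDSC (-0.42, adjusted p = 1.98e-06) and G-MDSC supernatant (-0.41, adjusted p = 2.66e-06).

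*Ccnd2*, by contrast, rose with TGF-β1. Its level was 14.7, 14.2 and 13.8 FPKM in untreated MSCs and 19.5, 17.5 and 17.1 FPKM with TGF-β1, a rise of 32.2% or 0.40 ± 0.055 on the log2 scale (adjusted p = 0.000194). The supernatant libraries had 15.5, 16.4 and 15.6 FPKM (M-MDSC) and 15.4, 15.3 and 16.5 FPKM (G-MDSC), between the untreated and the TGF-β1 libraries without overlapping either. Against TGF-β1 alone, G-MDSC supernatant lowered *Ccnd2* by 0.23 ± 0.055 on the log2 scale (adjusted p = 0.0367), and the value with M-MDSC supernatant was -0.21 ± 0.055 (adjusted p = 0.0567; 0.0216 with DESeq2). The G-MDSC call was lost in 14 of 22 alternatives, with fold changes of -0.26 to -0.17. Among these were the fits without untreated replicate 1, 2 or 3 (adjusted p = 0.0537, 0.059 and 0.0509), TGF-β1 replicate 1 or 2 (0.113 and 0.0705), G-MDSC replicate 1 or 2 (0.132 and 0.13) and M-MDSC replicate 3 (0.0518). *Ccnd2* stayed above untreated MSCs with M-MDSC (0.19, adjusted p = 0.0199) and G-MDSC supernatant (0.18, adjusted p = 0.0288). These calls were lost without untreated replicate 3 (0.0723 and 0.0977), without M-MDSC replicate 2 (0.0717) and without G-MDSC replicate 3 (0.101), when total counts alone were used for scaling (0.0538 and 0.07), and with both limma fits (0.0544 to 0.0733).

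*Ccnd3* varied more than the other D cyclins in 3 of 4 groups. Untreated MSCs had 9.23, 6.42 and 6.94 FPKM, TGF-β1-treated MSCs 5.92, 7.44 and 7.70 FPKM, and the supernatant libraries 6.65, 9.56 and 9.03 FPKM (M-MDSC) and 9.41, 8.70 and 9.14 FPKM (G-MDSC). Untreated replicate 1 was well above the other two of its group, and M-MDSC replicate 1 well below its own. No comparison passed, and the 95% confidence interval for TGF-β1 against untreated MSCs ran from -0.40 to 0.31 on the log2 scale. Without untreated replicate 1, *Ccnd3* was higher with G-MDSC supernatant than in untreated MSCs (0.47, adjusted p = 0.0424).

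The sum of the D cyclins fell from 125 ± 2.51 FPKM to 96.1 ± 0.687 FPKM with TGF-β1, and was 99.4 ± 2.03 FPKM with M-MDSC and 101 ± 1.75 FPKM with G-MDSC supernatant. The level of *Ccnd1* was 7.25 ± 0.178 times that of *Ccnd2* in untreated MSCs, 3.94 ± 0.282 times with TGF-β1, 4.75 ± 0.188 times with M-MDSC and 4.84 ± 0.160 times with G-MDSC supernatant. The ratios of the untreated, TGF-β1 and supernatant libraries did not overlap. *Ccnd2* thus rose from 11.4% to 18.8% of D cyclin transcripts with TGF-β1, and made up 15.9% and 15.6% with the supernatants.

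*Myc* was highly expressed and nearly level. It had 49.0, 46.2 and 44.2 FPKM in untreated MSCs and 47.0, 47.7 and 48.2 FPKM with TGF-β1, and the untreated range enclosed the TGF-β1 range. The log2 fold change was 0.093 with a 95% confidence interval of -0.020 to 0.21 (adjusted p = 0.195), so a fall of more than 0.020 lies outside the interval. The M-MDSC supernatant libraries had 52.1, 52.0 and 52.3 FPKM and the G-MDSC supernatant libraries 50.8, 52.4 and 46.2 FPKM. The M-MDSC libraries were above all untreated and TGF-β1 libraries, and G-MDSC replicate 3 was below the TGF-β1 ones. Against TGF-β1 alone, neither supernatant passed (0.11, adjusted p = 0.322, and 0.037, adjusted p = 0.807). Against untreated MSCs, *Myc* rose by 0.20 ± 0.051 with M-MDSC supernatant (adjusted p = 0.0105), and the value with G-MDSC supernatant was 0.13 ± 0.051 (adjusted p = 0.0738). The latter passed without untreated replicate 1 (0.0427) or G-MDSC replicate 3 (0.0135).

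**Figure D3:**
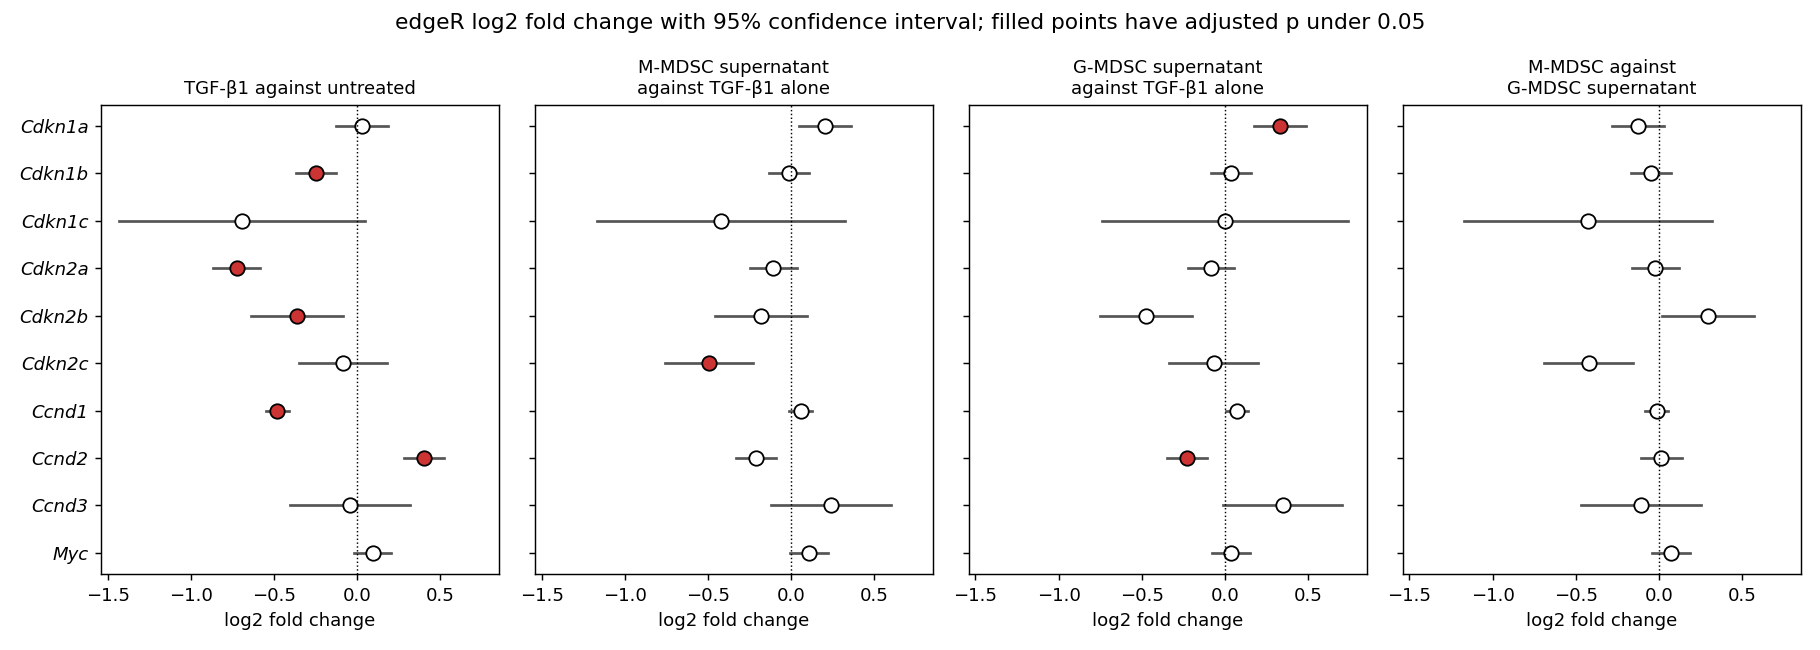
Log2 fold change (horizontal axes) of the 10 genes in 4 comparisons, with 95% confidence intervals from edgeR; filled points passed at an adjusted p under 0.05. There are 5 filled points for TGF-β1 against untreated MSCs, 1 for M-MDSC supernatant (*Cdkn2c*), 2 for G-MDSC supernatant (*Cdkn1a* and *Ccnd2*) and 0 between the supernatants.

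Set against TGF-β1 alone, the supernatants moved few of these genes. With M-MDSC supernatant 1 of 10 passed, *Cdkn2c*, beside 4.78% of all genes tested and 1.95% that fell. With G-MDSC supernatant 2 of 10 passed, *Cdkn1a* upward and *Ccnd2* downward, beside 5.56% of all genes, 3.1% upward and 2.46% downward. Both comparisons share the 3 TGF-β1 libraries. Groups did not overlap for 5 of 10 genes with M-MDSC and 6 of 10 with G-MDSC supernatant, beside 24% and 22.7% of all genes. Between the supernatants, 0 of 10 genes passed with edgeR and 0.125% of all genes did, and DESeq2 also called 0 of the 10. At an unadjusted p under 0.05, 2 of the 10 differed, *Cdkn2c* (lower in the M-MDSC group) and *Cdkn2b* (higher in it by 0.29 on the log2 scale), beside 6.33% of all genes. The adjusted p of *Cdkn2b* was 0.765. *Cdkn2c* passing with one supernatant, and *Cdkn1a* and *Ccnd2* with the other, therefore does not show that the supernatants differ.

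Against untreated MSCs, 9 of 10 genes passed with M-MDSC supernatant, 3 higher and 6 lower, where 35.2% of all genes passed, 16.4% higher and 18.9% lower. *Cdkn1c* is among the 6, and the other 9 genes give 8 calls. With G-MDSC supernatant 6 of 10 passed, 2 higher and 4 lower, where 34.8% of all genes passed, 16.4% higher and 18.4% lower. These comparisons share the untreated libraries with the comparison of TGF-β1 and untreated MSCs. The M-MDSC count was 6 without M-MDSC replicate 2, 7 without untreated replicate 1 or 3 or with only these 2 groups fitted, and 8 without M-MDSC replicate 1 or 3. The G-MDSC count was 5 without untreated replicate 3 and 8 without untreated replicate 1.

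Of 12 CDKs, G1 and S phase cyclins and regulators, which act with these genes, 1 rose, 5 fell and 6 did not pass with TGF-β1 (median log2 fold change -0.16), beside the 16.1% of all genes that rose and 17.9% that fell. *Cdk6*, a kinase partner of D cyclins, fell from 3.13 ± 0.198 to 1.67 ± 0.0980 FPKM (log2 fold change -0.85 ± 0.066, adjusted p = 2.74e-06). The other partner, *Cdk4*, was far more abundant. It went from 162 ± 5.68 to 146 ± 0.986 FPKM and did not pass (-0.095 ± 0.035, adjusted p = 0.0602). *Cdkn3*, a phosphatase that acts on CDK2, fell by 0.65, and *Cdk7*, the CDK-activating kinase, rose by 0.14 (10.2 to 10.8 FPKM, adjusted p = 0.0471). *Cdkn2d* is among the 5. Of 14 Rb family and E2F genes tested, 3 rose and 3 fell. *Rb1* itself rose from 1.38 to 2.08 FPKM (0.65 ± 0.095, adjusted p = 0.000328) and its relative *Rbl2* fell by 0.32. The activator *E2f2* rose by 0.55 and the repressor *E2f8* fell by 0.44. Of 12 genes for the turnover of p27, cyclin D and Myc proteins, *Skp1a*, a subunit of SCF ubiquitin ligases, fell by 0.15 and the others did not pass.

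Of 16 Myc targets of ribosome and polyamine synthesis, 7 rose and 0 fell with TGF-β1, where 16.1% of all genes rose and 17.9% fell, with a median log2 fold change of 0.17 beside 0.00048 over all genes. *Nolc1*, a nucleolar protein, rose from 63.9 to 77.1 FPKM (0.33 ± 0.031, adjusted p = 1.1e-05) and *Cad*, of pyrimidine synthesis, by 0.27. Calls on this and the other related lists were made with the main scaling only. With scaling by total counts alone the median over all genes was -0.058, and the lists were not refitted with it. Against untreated MSCs, 11 of the 16 rose with M-MDSC and 10 with G-MDSC supernatant, and 0 fell, beside 16.4% of all genes that rose in each comparison. The M-MDSC count was 9, 8 and 9 without M-MDSC replicate 1, 2 and 3. Of 9 genes of the Myc network tested (of 12), *Mxi1* rose by 0.39 and *Mxd3* fell by 0.56, both partners of Max that oppose Myc.

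Single genes of p53 and SMAD signalling, named for having the largest changes, changed more than the inhibitors did. The median log2 fold changes of these 2 lists were 0.20 and 0.28. Of 14 p53 pathway genes tested, 7 rose and 2 fell with TGF-β1, where 16.1% of all genes rose and 17.9% fell. *Gadd45a*, a stress-induced growth arrest gene, rose from 14.5 ± 1.41 to 70.4 ± 2.13 FPKM (2.33 ± 0.093, adjusted p = 1.95e-08) and the kinase *Plk2* by 1.39. The death receptor *Fas* fell by 1.36 (1.99 to 0.741 FPKM) and *Sesn1* by 0.62. Of 14 genes of the SMAD cytostatic response, 5 rose and 4 fell, beside the same shares of all genes. *Skil*, a SMAD corepressor, rose by 1.53 ± 0.41 (adjusted p = 0.0136) and *Atf3* by 0.83, while *Id3* and *Id2*, inhibitors of differentiation, fell by 1.84 and 1.71. Of 14 AP-1, β-catenin and YAP genes, which include inputs to *Ccnd1*, 3 rose and 6 fell, again beside 16.1% and 17.9%. *Junb* rose from 40.2 to 110 FPKM (1.52 ± 0.048, adjusted p = 3.65e-09) and *Lef1* by 1.02. *Fos* fell by 2.09 (3.98 to 0.887 FPKM) and *Axin2* by 1.17 (1.51 to 0.643 FPKM). With TGF-β1, *Fas*, *Fos* and *Axin2* averaged below the 1 FPKM of the filter, so their falls rest on low values.

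Of 15 proliferation markers, 1 rose, 6 fell and 8 did not pass with TGF-β1, with a median log2 fold change of -0.13, beside the 16.1% of all genes that rose and 17.9% that fell. *Tk1*, of thymidine salvage, fell from 21.6 to 14.4 FPKM (-0.52 ± 0.062, adjusted p = 6.86e-05) and *Cdc20*, of mitotic exit, by 0.26. The replication helicase subunit *Mcm6* rose by 0.098 (42.0 to 43.2 FPKM, adjusted p = 0.0282), a small change that was not checked with other scalings.

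**Figure D4:**
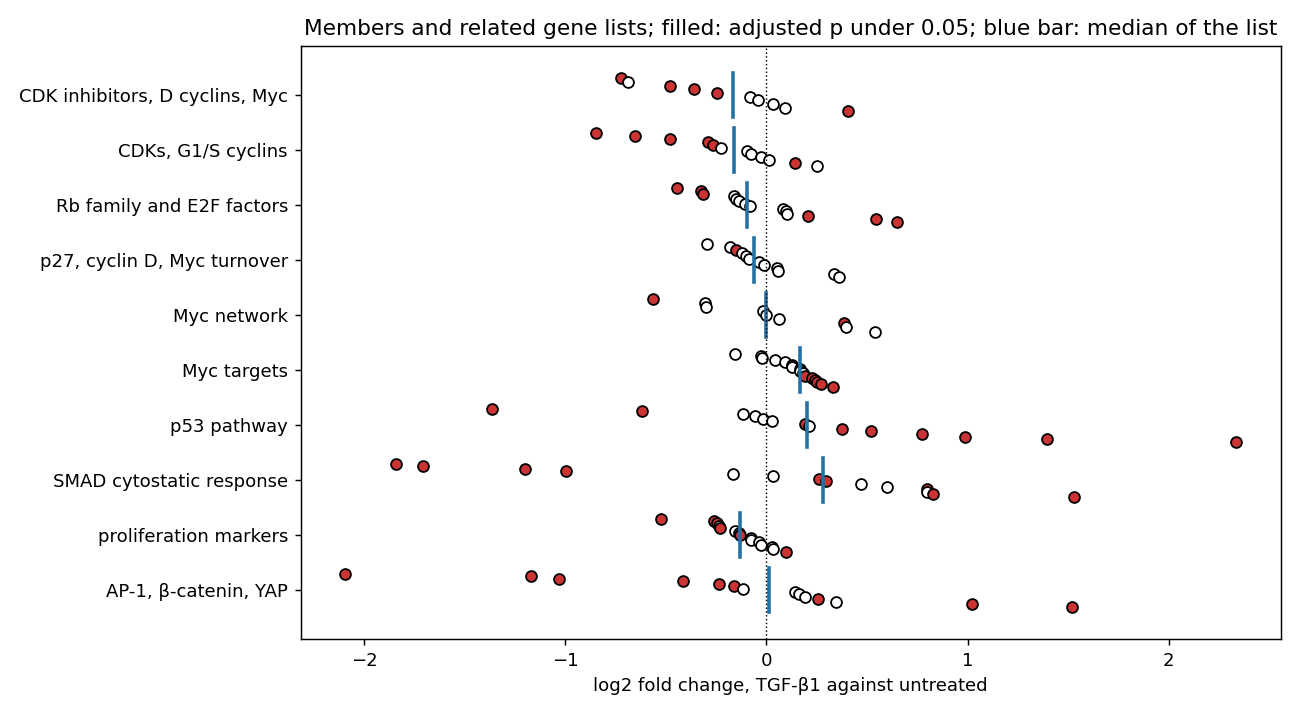
Log2 fold change between TGF-β1 and untreated MSCs (horizontal axis) for the 10 genes and 9 related gene lists; each point is a gene, filled points passed at an adjusted p under 0.05, and bars mark list medians. The inhibitors and D cyclins lie between -0.72 and 0.40, whereas p53, SMAD and AP-1 genes range from -2.09 to 2.33.

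Against TGF-β1 alone, 8 of the 120 list genes tested passed with M-MDSC and 6 with G-MDSC supernatant (6.67% and 5%), shares near the 4.78% and 5.56% of all genes. M-MDSC supernatant lowered *Gadd45a* (-0.41, adjusted p = 0.0233), *Plk2* (-0.22), *Foxo1* (-0.32), *Sp1* (-0.29, adjusted p = 0.00693), *Rbl2* (-0.23) and *Ccn1* (-0.24), and raised *Id2* (0.40, adjusted p = 0.0198) and *Mcm6* (0.17). Without M-MDSC replicate 3, which stands apart, *Rbl2*, *Plk2*, *Id2* and *Foxo1* no longer passed (adjusted p = 0.064, 0.0875, 0.0777 and 0.116), and 392 rather than 574 of all genes did. Without replicate 1, *Rbl2*, *Gadd45a*, *Plk2* and *Id2* were lost (0.109, 0.0574, 0.0815 and 0.0717), and without replicate 2, *Rbl2* and *Foxo1* (0.0942 and 0.0661). *Sp1*, *Mcm6* and *Ccn1* passed without any one of these 3 libraries. G-MDSC supernatant lowered *Gadd45a* (-0.65, adjusted p = 0.00139), *Plk2* (-0.27), *Foxo1* (-0.32) and *Ccn1* (-0.33), and raised *Id2* (0.54, adjusted p = 0.00296) and *Fosl1* (0.26). These G-MDSC calls were not repeated with a library left out, so they cannot be called firmer than the M-MDSC ones. Of all genes, 455 rather than 668 passed with G-MDSC supernatant without TGF-β1 replicate 2. No gene passed with either supernatant among the CDKs and cyclins, the turnover genes, the Myc network or the Myc targets, except that *Mxi1* of the Myc network was lower with M-MDSC supernatant when M-MDSC replicate 2 was left out (-0.53, adjusted p = 0.036, against -0.39 and 0.146 with all libraries).

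Over the 12 libraries, which include the group differences, the genes whose log2 levels followed *Cdkn2a* most closely were *Cacnb3*, *Vat1* and *Rgl1* (Pearson's r = 0.990, 0.990 and 0.989), and those for *Ccnd1* were *Sdc4*, *Eps8l2* and *Prss22* (0.996, 0.992 and 0.992). For *Cdkn1c*, which entered the test through the untreated libraries, the closest were *Ppcs*, *Slc9a8* and *Fbxo44* (0.957, 0.927 and 0.925), given as a description only.

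Exons of *Ccnd1* share 1100 bases with *LTO1* on the opposite strand, and those of *Cdkn1c* 625, *Ccnd2* up to 372, *Ccnd3* 361 and *Cdkn1a* 273 bases with genes opposite to them. The library kit keeps strand, but whether the counting used it is not given in the sources used here, so reads of these overlaps cannot be told apart.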

How the data were processed

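The authors trimmed reads with cutadapt 1.9, aligned them to GRCm38 with HISAT2 2.0.4 and assembled transcripts with StringTie 1.3.4d. The deposited table holds raw counts and FPKM per gene, both made by the authors, and the tool that made the counts is not given in the sources used here. Of counts from 1 to 12, 44.3% were multiples of 4. Genes with at least 1 FPKM in at least 3 of 12 libraries were tested (12016). Counts were fitted with edgeR 4.0.16 in R 4.3.3, 4 groups in one fit, with trimmed mean of M-values scaling (factors 0.978 to 1.03), the two-sided quasi-likelihood F test and Benjamini-Hochberg adjustment over all genes tested. Means are of FPKM and errors are SD (n = 3) or the SE of the log2 fold change. Besides the 10, the text names up to 2 genes in each direction with the largest changes past the threshold. This was done for each list and in each comparison with TGF-β1. The 3 genes that follow each of the 3 most changed members are named too. *Cdkn2d*, *Cdk4*, *Mxi1* without a library and the single leukocyte markers were picked after their values were seen. Motifs were searched in 215 rather than all promoter bases, and planned protein motifs were not analysed here. The 10 genes and the lists were chosen with earlier results of these data known. Alternatives used other scalings, filters, DESeq2 1.42.0, limma 3.58.1 on log2(FPKM + 1) and log2(FPKM + 0.1), only the groups compared, the replicate number as a block, counts divided by 4, and 1 library left out. Leaving out M-MDSC libraries for the related lists, and *Cdkn1c* from the 10 genes, were alternatives chosen after seeing the data. The related lists had no other alternative. The procedure was tested on simulated data.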

Additional observations from a re-analysis of the deposited data

How the results depend on the processing

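Of 220 values for the 10 genes in alternative analyses of TGF-β1 against untreated MSCs, 200 kept their direction and side of the threshold, 12 lost it, 1 gained it and 7 changed sign. The corresponding numbers were 196, 16, 1 and 7 for M-MDSC supernatant against TGF-β1 alone, 192, 19, 3 and 6 for G-MDSC supernatant against TGF-β1 alone, and 214, 0, 0 and 6 between the supernatants. The falls of *Cdkn2a*, *Cdkn1b* and *Ccnd1* and the rise of *Ccnd2* with TGF-β1 passed in all 22 alternatives.

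Under the study's rule of fold and unadjusted p, 0 of the 10 genes passed with TGF-β1 or G-MDSC supernatant against untreated MSCs (beside 810 and 817 of all 12016), 1 with M-MDSC supernatant against untreated MSCs (beside 839), and 0 with M-MDSC or G-MDSC supernatant against TGF-β1 alone (beside 262 and 261). The 1 is *Cdkn1c*, which entered the test through the untreated libraries. For M-MDSC supernatant against TGF-β1 alone, where 351 to 830 of all genes passed over the alternatives, 0 of the 10 passed with total counts only, no filter, filterByExpr, limma on log2(FPKM + 1), only the 2 groups compared or the replicate block, 2 passed with DESeq2, and 0 to 1 with a library left out. For G-MDSC supernatant, with 455 to 990 of all genes, 1 of the 10 passed with total counts only, no filter, both limma fits, only the 2 groups compared or the replicate block, 3 with DESeq2, and 0 to 2 with a library left out. The cause was not tested.

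Signs changed only for differences that did not pass. *Cdkn1a* with TGF-β1 was -0.030 with total counts and -0.022 and -0.026 with limma (pseudocounts 1 and 0.1), and -0.020 to 0.063 with a library left out. *Cdkn1b* with M-MDSC supernatant against TGF-β1 alone was 0.012 with total counts, 0.0098 and 0.011 with limma, 0.0028 with only the 2 groups, and -0.030 to 0.0029 with a library left out. *Cdkn1c* with G-MDSC supernatant against TGF-β1 alone was -0.015 with limma (pseudocount 0.1), -0.0036 with counts divided by 4, and -0.34 to 0.16 with a library left out. Ranges with a library left out that crossed 0 were -0.15 to 0.11 for *Ccnd3* with TGF-β1, -0.14 to 0.055 for *Cdkn2c* and -4.6e-05 to 0.087 for *Myc* with G-MDSC supernatant against TGF-β1 alone, and, between the supernatants, -0.032 to 0.011 for *Ccnd1*, -0.011 to 0.051 for *Ccnd2*, -0.21 to 0.035 for *Ccnd3* and -0.073 to 0.012 for *Cdkn2a*.

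The replicate numbers did not pair the libraries: residuals of same-numbered libraries had a mean correlation of -0.0038 over 18 pairs, none over 0.1, and 0.0020 over 36 pairs of different numbers. With the number as a block, 461 rather than 574 genes passed for M-MDSC and 569 rather than 668 for G-MDSC supernatant against TGF-β1 alone. In proportion, counts of all genes called differed most between the supernatants. There, 15 passed with edgeR, 121 with DESeq2, 41 with only the 2 groups, 39 with limma on log2(FPKM + 1) and 8 with the block. With a library left out, 9 (without G-MDSC replicate 1) to 47 (without M-MDSC replicate 3) passed. For M-MDSC supernatant against TGF-β1 alone, 351 passed with only the 2 groups and 355 without TGF-β1 replicate 2. With no filter, the study's rule called 2047 rather than 810 genes for TGF-β1. *Cdkn1c* had at most 257 counts in any library.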
